A study of Mus musculus with 19 samples.

Results

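The genes described here take up lipid from plasma into the heart. They are 8 genes of the 55536 in the count files: Lpl, Gpihbp1, Angptl4, Cd36, Fabp3, Fabp4, Slc27a1 and Vldlr. They were chosen by gene symbol as lipoprotein lipase, its regulators and the fatty acid and lipoprotein carriers. The rule uses no measured value, but earlier results of these data were known when it was made. The study deleted Mpc1, a subunit of the carrier that brings pyruvate into mitochondria, in the heart of adult mice by an inducible system, and sequenced RNA from the ventricles. Its 4 groups were wild-type mice at the 8-week time (WT-8, 5 libraries), knockout mice 8 weeks after induction (KO-8, 4 libraries), wild-type mice at the 16-week time (WT-16, 5 libraries) and knockout mice 16 weeks after induction (KO-16, 5 libraries). The labels give genotype and time alone. The driver of the deletion, the inducing agent, whether wild-type mice received it, the strain, and the age and sex of the mice are not given in the sources used here. Nothing in the labels says that libraries of a group came from separate mice, so every p-value measures the spread between these libraries, which may be technical.

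Most fatty acid that the heart burns arrives in plasma as triglyceride in lipoproteins or bound to albumin. Lipoprotein lipase, made by cardiomyocytes, is carried to the capillary wall by GPIHBP1, a protein of endothelial cells, and splits the triglyceride there, while ANGPTL4 inactivates the enzyme and the VLDL receptor binds the lipoprotein particles. CD36 and FATP1 (Slc27a1) help fatty acids across the plasma membrane, and the binding proteins FABP3 and FABP4 hold them inside the cell, FABP3 in muscle and FABP4 in capillary endothelium, adipocytes and macrophages.

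Libraries held 8632127 to 27516660 read pairs assigned to genes. Mpc1 itself averaged 74.4 CPM (counts scaled to a common library total) in WT-8, 10.8 in KO-8, 69.7 in WT-16 and 15.1 in KO-16, and every knockout library lay below every wild-type library of its time. Reads of 18S ribosomal RNA were plentiful at 16 weeks, where they made up between 6.881 and 39.12% of a WT-16 library and between 1.711 and 29.96% of a KO-16 library. At 8 weeks they reached at most 0.06658%. The spread between libraries was larger too: the common coefficient of variation was 0.228 at 16 weeks and 0.093 at 8 weeks, so each time was tested on its own libraries. By sex-linked transcripts WT-16 replicate 5 and KO-16 replicate 4 were male and all others female. Time after induction goes with the number of count files per sample, 2 at 16 weeks alone, and with 18S content. These cannot be told apart.

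Sequence before a start site is shown for 3 members: Vldlr, which fell at both times, and Cd36 and Slc27a1, which passed the threshold at neither. Slc27a1 was the least expressed of the membrane carriers. Each run is the 250 bases before a RefSeq transcript start in GRCm38.p6, read 5′ to 3′ on the gene's strand, in the order Vldlr (chr19:27216234-27216483, plus strand), Cd36 (chr5:17835897-17836146, minus strand, a start inside the annotated span of the gene) and Slc27a1 (chr8:71568621-71568870, plus strand). RefSeq windows were matched for 4 of the 8 members, these and Fabp3. Capitals mark matches on either strand to the nuclear receptor half-site AGGTCA, the core ACGTG of some E-boxes, the CCAAT box, the TATA box TATAAA and the GC box GGGCGG. The sixth motif searched was DR1, a direct repeat of the half-site with a single base between, which contains the half-site.
Vldlr: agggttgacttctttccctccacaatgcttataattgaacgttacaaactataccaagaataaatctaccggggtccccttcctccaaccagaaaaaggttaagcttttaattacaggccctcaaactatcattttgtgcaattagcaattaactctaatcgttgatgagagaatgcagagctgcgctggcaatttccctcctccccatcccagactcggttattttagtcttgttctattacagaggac
Cd36: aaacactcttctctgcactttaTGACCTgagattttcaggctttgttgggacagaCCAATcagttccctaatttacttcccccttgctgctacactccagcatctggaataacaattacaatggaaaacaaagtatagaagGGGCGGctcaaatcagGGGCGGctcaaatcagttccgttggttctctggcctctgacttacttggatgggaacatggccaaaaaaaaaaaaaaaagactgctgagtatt
Slc27a1: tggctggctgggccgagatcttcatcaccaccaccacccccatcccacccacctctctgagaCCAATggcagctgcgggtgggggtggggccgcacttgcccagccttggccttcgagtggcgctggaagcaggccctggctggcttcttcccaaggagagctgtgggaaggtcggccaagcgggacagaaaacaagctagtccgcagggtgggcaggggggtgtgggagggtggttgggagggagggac

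The table also holds a second Vldlr start and 2 further Slc27a1 starts downstream of those printed. The Vldlr window shown held none of the 6 motifs and had 41.6% G and C. The window before the other Vldlr start, base 27217020, had 66.4% G and C and held CCAAT at -78 to -74 and GGGCGG at -42 to -37, both on the reverse strand. The Cd36 window, at 43.2% G and C, held a half-site on the reverse strand at bases -228 to -223 from the start, CCAAT at -195 to -191, and GGGCGG at -109 to -104 and again at -93 to -88. The Slc27a1 window shown had 66.4% G and C, with CCAAT alone at -188 to -184. Of its other windows, that before base 71569597 held GGGCGG at -139 to -134. That before base 71570594 held ACGTG on both strands between -202 and -197, CCAAT at -128 to -124, and GGGCGG at -159 to -154, -48 to -43 and -17 to -12. Over 32851 promoter windows in the same table, median G and C was 52.4%, and 14.02% held AGGTCA, 0.03348% DR1, 16.57% ACGTG, 33.85% the CCAAT box, 12.37% the TATA box and 32.74% the GC box. These matches are letters in a window, not sites shown to be bound.

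Per kb of exon, the members kept a single order of mean level in all 4 groups: Fabp3, Cd36, Lpl, Fabp4, Vldlr, Gpihbp1, Slc27a1 and Angptl4. Exon length here covers every annotated exon of a gene, and for Fabp4 it was 4489 bases, the whole span of the gene. A transcript shorter than this length has a higher level per kb than printed, Fabp4 above all. The order and ranks between genes therefore hold for the annotated lengths alone. In WT-16 the mean level of Fabp3 was 778.5 ± 52.5 CPM per kb (SD, n = 5), the 25th highest of 15503 genes, while Cd36 stood 36th and Lpl 40th. Angptl4 was lowest, at 1.81 ± 0.87 CPM per kb in WT-16. In WT-8 the level of Fabp3 was 595.8 ± 13.98, that of Cd36 358.6 ± 34.1 and that of Lpl 262.3 ± 9.2 CPM per kb, with no overlap between these 3. Gpihbp1 and Slc27a1 overlapped in every group. Other neighbours whose libraries overlapped were Fabp4 and Vldlr in WT-8, Cd36 and Lpl in WT-16 and KO-16, and Fabp3 and Cd36 in KO-16.

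**Figure D1:**
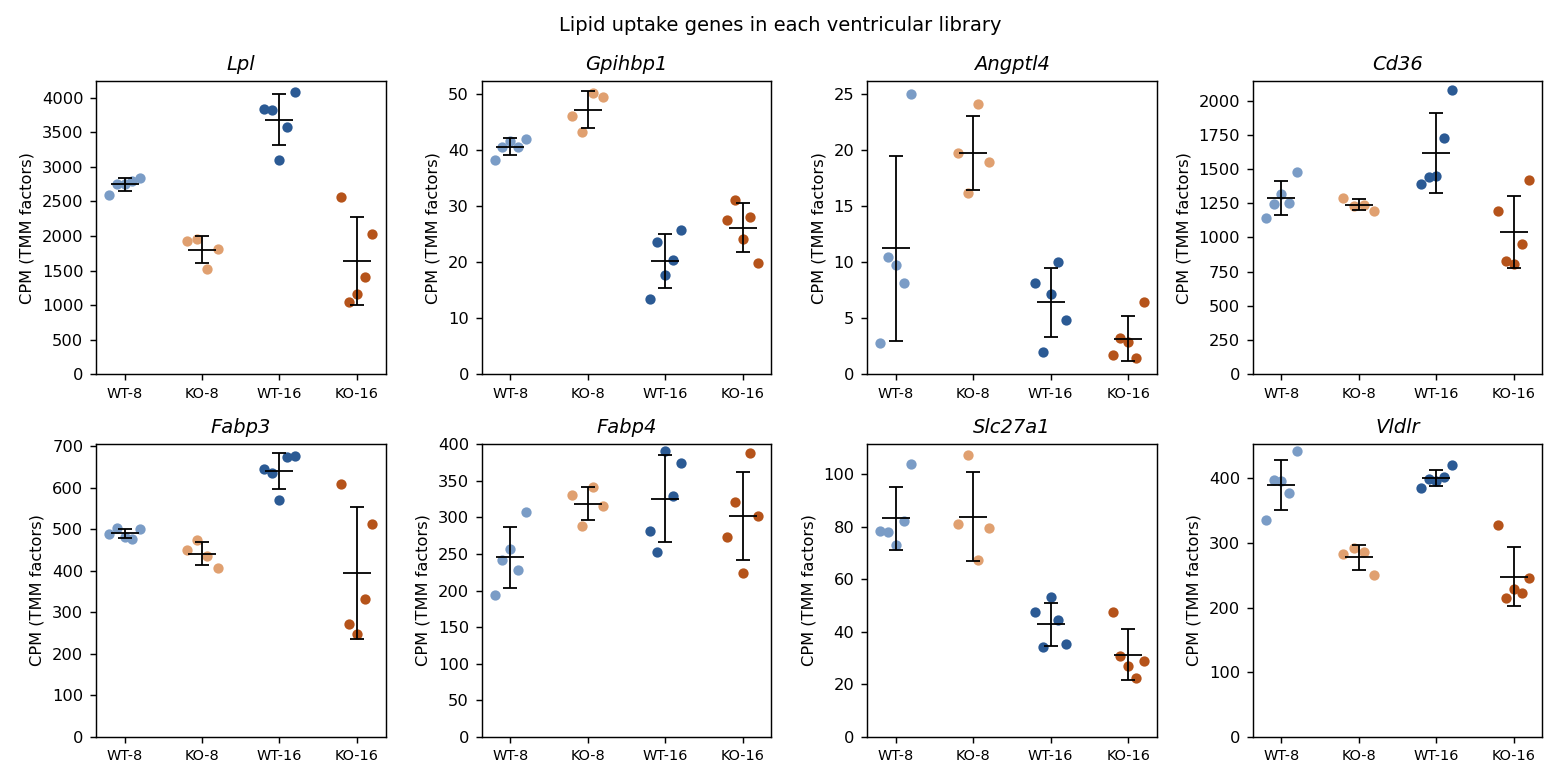
Level of each of the 8 genes in CPM (vertical axis, linear from 0) in each library of WT-8, KO-8, WT-16 and KO-16 (horizontal axis), where points are libraries and black bars are the mean ± SD. Lpl and Vldlr knockout points lie below the wild-type points of the same time, and KO-16 points of Lpl run from 1040 to 2563 CPM.

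Lpl (ENSMUSG00000015568, chromosome 8, 68880491 to 68907448, plus strand, GRCm38) encodes the lipase itself and fell at both times. In WT-8 its level was 2590, 2748, 2759, 2802 and 2843 CPM, and in KO-8 it was 1931, 1955, 1522 and 1805 CPM. All KO-8 libraries lay below all WT-8 libraries, and the mean went from 2748 ± 96.1 (SD, n = 5) to 1803 ± 198.5 CPM (SD, n = 4). The log2 fold change was -0.60 (SE 0.071, 95% interval -0.75 to -0.45, edgeR adjusted p = 0.000236), or 1.51-fold lower. Only the fit to all 19 libraries together put this outside the threshold (-0.61, adjusted p = 0.309). In bulk RNA, fewer cells of a type and less RNA per cell cannot be told apart, here and for every gene below.

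At 16 weeks the Lpl level in WT-16 was 3835, 3819, 3106, 3574 and 4089 CPM, and in KO-16 it was 2563, 1040, 1161, 1400 and 2027 CPM. Again no library of one group reached the other, and the highest KO-16 value, replicate 1, was also that of the library with the most Mpc1 left. Mean Lpl fell from 3685 ± 371 CPM in WT-16 to 1638 ± 642 CPM (SD, n = 5 libraries a group). In log2 terms the fold change was -1.17 (SE 0.23, 95% interval -1.66 to -0.68, adjusted p = 0.0269), or 2.24-fold lower. This call was lost on leaving out any one of WT-16 replicates 1, 2, 4 and 5 or KO-16 replicates 2, 3 and 4, with values of -1.18 to -1.04 and adjusted p of 0.0527 to 0.0826. It was also lost when 18S content entered the model (-1.03, adjusted p = 0.0893) and without the 2 male libraries (-1.08, adjusted p = 0.169).

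The summed level of 10 cardiomyocyte markers was 108400 to 112100 CPM in WT-8, 104200 to 111400 in KO-8, 115800 to 131800 in WT-16, and 86750 to 124200 for the KO-16 libraries. Of those markers edgeR called 2 lower at 8 weeks and 0 in either direction at 16 weeks. At 16 weeks DESeq2 called 2, limma-voom 0 and limma-voom with quality weights 5. In edgeR 5 had an unadjusted p under 0.05 at 16 weeks, with signs that differed. Mybpc3 was higher (log2 fold change 0.52), and Ryr2 (-0.90), Pln (-0.73), Myh6 (-0.51) and Tnni3 (-0.51) were lower. Of the rest, Myl3 (0.31) and Actc1 (0.15) were above 0. Set against the summed counts of these markers in the same library, Lpl remained lower in every knockout library than in every wild-type library of its time. That log2 ratio went from -5.33 to -5.91 at 8 weeks and from -5.07 to -6.02 at 16 weeks. Ttn made up most of the sum, with 68560 to 81640 CPM in WT-16 and 57150 to 74600 CPM in KO-16. Its log2 fold change was 0.02 at 8 weeks and -0.20 at 16 weeks, past the threshold at neither. The ratio is thus mostly a ratio to Ttn, and whether Lpl fell beyond cardiomyocyte genes in general was not tested.

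Gpihbp1 (ENSMUSG00000022579, chromosome 15, 75596628 to 75599481, plus strand) encodes the endothelial anchor of the lipase, and it rose at 8 weeks. Its level in WT-8 was 38.3, 40.5, 41.8, 40.6 and 42.0 CPM, against 46.2, 43.2, 50.3 and 49.5 CPM in KO-8. Every KO-8 library exceeded every WT-8 library, by a log2 fold change of 0.23 (SE 0.058, 95% interval 0.10 to 0.35, adjusted p = 0.0264), or 1.17-fold. The rise did not pass without any one of WT-8 replicates 1, 2 and 4 or KO-8 replicates 3 and 4 (0.19 to 0.23, adjusted p 0.0540 to 0.0773), nor when all 19 libraries were fitted together (0.22, adjusted p = 0.733). At 16 weeks the level was 13.4, 23.7, 17.8, 20.5 and 25.8 CPM in WT-16 and 27.6, 31.2, 24.1, 28.1 and 19.8 CPM in KO-16. These groups overlapped, and the log2 fold change of 0.39 (SE 0.17, 95% interval 0.02 to 0.76, adjusted p = 0.181) did not pass.

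Of 10 endothelial markers, all tested, 3 passed at 8 weeks and 1 at 16 weeks, all higher in the knockout. At 8 weeks Vwf (-0.16) and Tek (-0.01), which did not pass, had the opposite sign. Their summed level was 662.4 to 704.6 CPM in WT-8, 727.3 to 795.7 in KO-8, 523.2 to 597.1 in WT-16, and 577.4 to 847.4 for the KO-16 libraries, and none was at 0. The sums did not overlap at 8 weeks and overlapped at 16 weeks. Against the summed counts of these markers, the mean log2 ratio of Gpihbp1 was 0.06 higher in KO-8 than in WT-8. It changed by -0.04 between WT-16 and KO-16, with overlapping libraries at both times. The SD of this ratio was 0.056 in WT-8, 0.063 in KO-8, 0.42 in WT-16 and 0.30 in KO-16. At 16 weeks a difference near the Gpihbp1 log2 fold change of 0.39 could thus be missed.

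Angptl4 (ENSMUSG00000002289, chromosome 17, 33773750 to 33781830, minus strand), the inhibitor of the lipase, passed the threshold at neither time and was the most scattered member. Its level in WT-8 was 2.76, 10.5, 9.77, 8.10 and 25.0 CPM and in KO-8 19.8, 16.1, 24.1 and 18.9 CPM, so that WT-8 replicate 5 alone exceeded all of KO-8. The log2 fold change was 0.79 (SE 0.38, 95% interval -0.03 to 1.605, adjusted p = 0.232). Without WT-8 replicate 5 it was 1.38 (adjusted p = 0.00788), and with no filter on low counts the adjusted p was 0.000243. These were the only 2 of 20 other settings in which it passed at 8 weeks. In WT-16 the level was 8.09, 1.99, 7.18, 9.99 and 4.83 CPM and in KO-16 1.68, 3.18, 2.90, 1.47 and 6.48 CPM. The 16-week log2 fold change, -1.09 (SE 0.42, 95% interval -1.99 to -0.18, adjusted p = 0.135), had the opposite sign to that at 8 weeks. Without KO-16 replicate 5, the highest of its group, it was -1.42 (adjusted p = 0.0325). It passed in that 1 of 29 other settings alone, and over the 29 its value ran from -1.42 to -0.68. Leaving out KO-16 replicate 5 also raised the calls over all genes from 356 to 1856.

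Vldlr (ENSMUSG00000024924, chromosome 19, 27216484 to 27254231, plus strand) encodes the receptor for triglyceride-rich lipoproteins whose upstream sequence is given above. It fell at both times with a narrow spread. Its level in WT-8 was 335.4, 397.3, 396.6, 377.1 and 441.6 CPM and in KO-8 283.5, 292.0, 286.3 and 249.9 CPM. No KO-8 library reached the lowest WT-8 library, and the log2 fold change was -0.48 (SE 0.078, 95% interval -0.64 to -0.31, adjusted p = 0.00228), or 1.39-fold lower. The fit to all 19 libraries gave -0.49 with adjusted p = 0.0685.

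At 16 weeks the Vldlr level was 385.2, 398.3, 395.9, 402.7 and 420.6 CPM in WT-16 and 327.3, 215.1, 229.3, 223.3 and 245.3 CPM in KO-16. KO-16 replicate 1 stood apart from the other 4 yet below all of WT-16. The log2 fold change was -0.69 (SE 0.13, 95% interval -0.96 to -0.42, adjusted p = 0.0211), or 1.61-fold lower, and -0.81 without that replicate (adjusted p = 0.000582). Over all genes, 1702 passed without that replicate and 356 with it. Leaving out any one of the same 7 libraries as for Lpl ended the Vldlr call (-0.70 to -0.64, adjusted p 0.0527 to 0.0722), as did the 18S covariate (-0.69, adjusted p = 0.0685) and leaving out the male libraries (-0.63, adjusted p = 0.149). Against the summed cardiomyocyte markers, Vldlr remained lower in all knockout libraries, by 0.46 in log2 ratio at 8 weeks and 0.42 at 16 weeks. That sum is mostly Ttn. At 16 weeks the markers Ryr2 (-0.90) and Pln (-0.73), which did not pass, had larger falls than Vldlr, and the others fell less or rose.

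Cd36 (ENSMUSG00000002944, chromosome 5, 17781690 to 17888801, minus strand), the main fatty acid translocase of cardiac muscle, had 8-week levels of 1145, 1246, 1319, 1252 and 1476 CPM in WT-8 and 1292, 1233, 1239 and 1197 CPM in KO-8. KO-8 lay inside the range of WT-8, with a log2 fold change of -0.04 (SE 0.070, 95% interval -0.19 to 0.10, adjusted p = 0.760). At 16 weeks the level was 1388, 1446, 1452, 1725 and 2080 CPM in WT-16 and 1197, 826.8, 809.3, 949.0 and 1419 CPM in KO-16. Of KO-16, 4 libraries lay below all of WT-16 and replicate 5 did not. The log2 fold change of -0.63 (SE 0.18, 95% interval -1.02 to -0.24, adjusted p = 0.0665) missed the threshold, which it passed in 7 of 29 other settings, DESeq2 among them (adjusted p = 0.0135).

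Slc27a1 (ENSMUSG00000031808, chromosome 8, 71568882 to 71587302, plus strand), which encodes the transporter FATP1, averaged 83.2 ± 12.1 CPM in WT-8 (SD, n = 5) and 83.8 ± 16.9 in KO-8 (SD, n = 4). Its 8-week log2 fold change was 0.02 (SE 0.12, 95% interval -0.24 to 0.28, adjusted p = 0.948). The 16-week means were 42.9 ± 8.1 CPM for WT-16 libraries and 31.4 ± 9.6 CPM for KO-16 libraries (SD, n = 5). KO-16 replicate 1, at 47.6 CPM, lay within WT-16 while the other 4, from 22.4 to 30.7, lay below it. The log2 fold change was -0.45 (SE 0.19, 95% interval -0.86 to -0.04, adjusted p = 0.164), and -0.65 without that replicate (adjusted p = 0.0157). It passed in 3 of 29 other settings, over which its value ran from -0.69 to -0.35. Leaving out KO-16 replicate 1 also raised the calls over all genes from 356 to 1702.

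Fabp3 (ENSMUSG00000028773, chromosome 4, 130308595 to 130315463, plus strand), the heart-type binding protein, was 488.9, 502.7, 481.2, 477.6 and 501.6 CPM in WT-8 and 449.9, 474.4, 436.1 and 406.7 CPM in KO-8. Although the groups did not overlap, the log2 fold change of -0.14 (SE 0.055, 95% interval -0.26 to -0.02, adjusted p = 0.143) did not pass. At 16 weeks its level was 644.5, 636.0, 570.6, 674.6 and 677.8 CPM in WT-16 and 609.7, 272.8, 246.9, 331.2 and 513.2 CPM in KO-16. Replicate 1 of KO-16 lay within WT-16 and the other 4 below it. The log2 fold change was -0.70 (SE 0.22, 95% interval -1.17 to -0.22, adjusted p = 0.0851). Without KO-16 replicate 1 it was -0.91 (adjusted p = 0.00878), and it passed in 7 of 29 other settings in all. Over all genes, leaving out that replicate raised the calls from 356 to 1702. Against the summed cardiomyocyte markers, Fabp3 libraries overlapped at 8 weeks, with a mean log2 ratio of -7.81 in WT-8 and -7.94 in KO-8. At 16 weeks they did not, with means of -7.59 in WT-16 and -8.08 in KO-16. KO-16 replicate 1, at -7.670, lay just below the lowest WT-16 value of -7.665. The pseudogene Fabp3-ps1 had at most 466 counts in a library, and reads that match both were not measured, so the Fabp3 level is uncertain to that extent.

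Fabp4 (ENSMUSG00000062515, chromosome 3, 10204088 to 10208576, minus strand), the binding protein of capillary endothelium and adipocytes, rose at 8 weeks. Its level in WT-8 was 193.3, 241.2, 257.2, 227.6 and 306.8 CPM and in KO-8 331.1, 288.4, 341.3 and 315.0 CPM. The ranges overlapped through WT-8 replicate 5, and the log2 fold change was 0.39 (SE 0.10, 95% interval 0.16 to 0.61, adjusted p = 0.0345), or 1.31-fold higher. The call was lost without any one of WT-8 replicates 1 to 4 or KO-8 replicates 1, 3 and 4 (0.31 to 0.41, adjusted p 0.0520 to 0.0887). It was lost too when all 19 libraries were fitted together (0.38, adjusted p = 0.503). Relative to the summed endothelial markers, whose sum was larger in every KO-8 library than in WT-8, Fabp4 was 0.24 higher in mean log2 ratio, with overlapping libraries.

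At 16 weeks Fabp4 was 281.0, 252.0, 390.8, 329.1 and 374.9 CPM in WT-16 and 273.3, 321.0, 224.6, 388.5 and 302.0 CPM in KO-16. The groups overlapped throughout, with a log2 fold change of -0.11 (SE 0.16, 95% interval -0.46 to 0.25, adjusted p = 0.711). WT-16 replicate 3, the highest of its group, also held the most adipocyte marker RNA: 7 adipocyte markers (the list without Lipe) summed to 108.0 CPM there and Adipoq reached 8.84 CPM. The same sum was 18.95 CPM in KO-16 replicate 5 and 0.06 to 3.45 CPM in the other 17 libraries. Without WT-16 replicate 3 the Fabp4 log2 fold change was -0.03 (adjusted p = 0.926). Relative to the summed endothelial markers, Fabp4 went the other way from 8 weeks: the mean log2 ratio was -0.79 in WT-16 and -1.33 in KO-16, a difference of -0.54 with overlapping libraries.

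Counted together, 4 of the 8 members passed the threshold at 8 weeks, 2 higher (Gpihbp1 and Fabp4) and 2 lower (Lpl and Vldlr). Over all 15173 genes tested, 8.21% passed, 4.3% higher and 3.91% lower. At 16 weeks 2 of 8 passed, Lpl and Vldlr, both lower, beside 2.83% of 12597 genes, 1.88% higher and 0.945% lower. Groups did not overlap for 4 members at 8 weeks, 3 with the knockout lower (Lpl, Fabp3 and Vldlr) and 1 with it higher (Gpihbp1), beside 10.9% of all genes, 5.85% lower and 5.02% higher. At 16 weeks they did not overlap for Lpl and Vldlr, both lower, beside 4.68% of all genes, 2.56% lower and 2.12% higher. The median log2 fold change of the 8 was -0.01 at 8 weeks and -0.66 at 16 weeks, where the medians of all genes were 0.0019 and 0.009. At an unadjusted p under 0.05, 7 members at 16 weeks stood beside 25.4% of all genes, and 5 at 8 weeks beside 23.2%. Because the members were chosen with earlier results of these data known, these counts are description and not an independent test of the set.

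**Figure D2:**
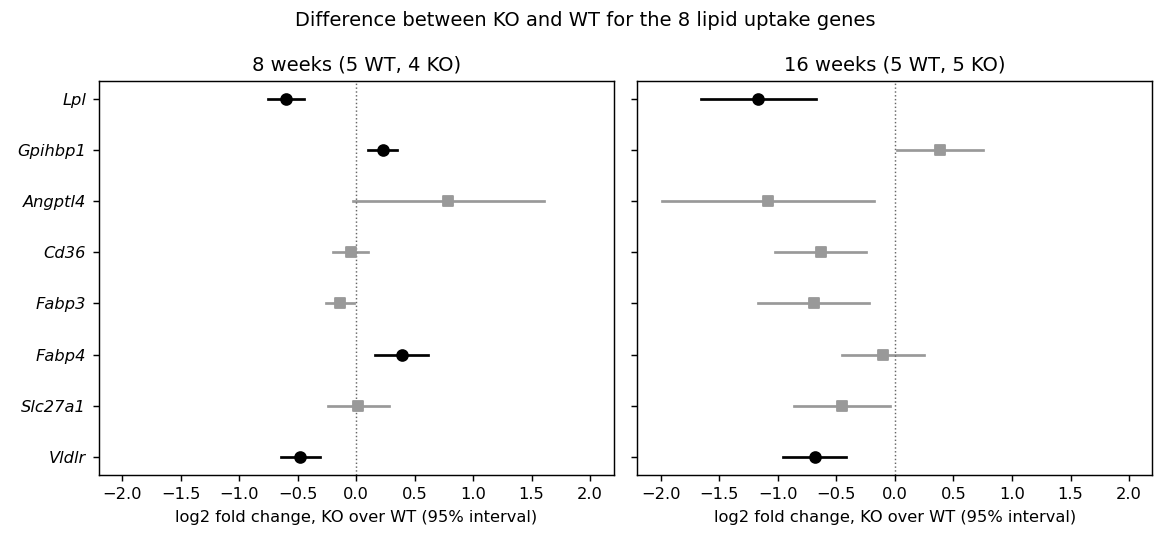
Log2 fold change of knockout over wild type (horizontal axis) for each gene at 8 and 16 weeks, with bars for the 95% interval, black circles for genes past the adjusted threshold and grey squares for the others. Lpl and Vldlr are black and below 0 at both times, while Gpihbp1 and Fabp4 are black and above 0 at 8 weeks alone.

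The change in the knockout effect between the times was tested in a fit to all 19 libraries, and it passed for none of the 8 members and for none of 15503 genes. In that edgeR fit 5 members and 2000 genes (12.9%) had an unadjusted p under 0.05, DESeq2 called 30 genes but 0 members, limma-voom 0 of both, and limma-voom with quality weights 527 genes and 3 members, Lpl, Cd36 and Fabp3. The size of the difference, 16 minus 8 weeks on the log2 scale, was -1.94 for Angptl4 (SE 0.64, adjusted p = 0.312), -0.58 for Cd36 (adjusted p = 0.313), -0.56 for Lpl (adjusted p = 0.377) and -0.55 for Fabp3 (adjusted p = 0.377). For Vldlr it was -0.20 (adjusted p = 0.556) and for Gpihbp1 0.17 (adjusted p = 0.702). Without KO-16 replicate 1 it passed for Lpl (-0.78, adjusted p = 0.0399) and Fabp3 (-0.76, adjusted p = 0.0422), and for 613 of all genes. The fold at 16 weeks is thus larger for Lpl by value, but the difference between times was not past the threshold with all libraries.

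A ratio of counts within a library does not depend on its total. The Gpihbp1 to Lpl log2 ratio went from -6.08 in WT-8 to -5.25 in KO-8 and from -7.54 in WT-16 to -5.90 in KO-16, without overlap at either time. Lpl alone did not overlap at either time, so this ratio carries the fall of Lpl and is not a separate result. In KO-16 it was -6.54, -5.06, -5.59, -5.64 and -6.68, and replicates 1 and 5 were thus nearest to WT-16, whose highest value was -7.31. Ratios of Angptl4 to Lpl, Vldlr to Lpl, Fabp4 to Fabp3 and Cd36 to Slc27a1 overlapped between genotypes at both times. Fabp4 to Fabp3 at 16 weeks lay between -1.34 and -0.55 in WT-16 libraries and between -1.16 and 0.23 in KO-16 libraries.

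**Figure D3:**
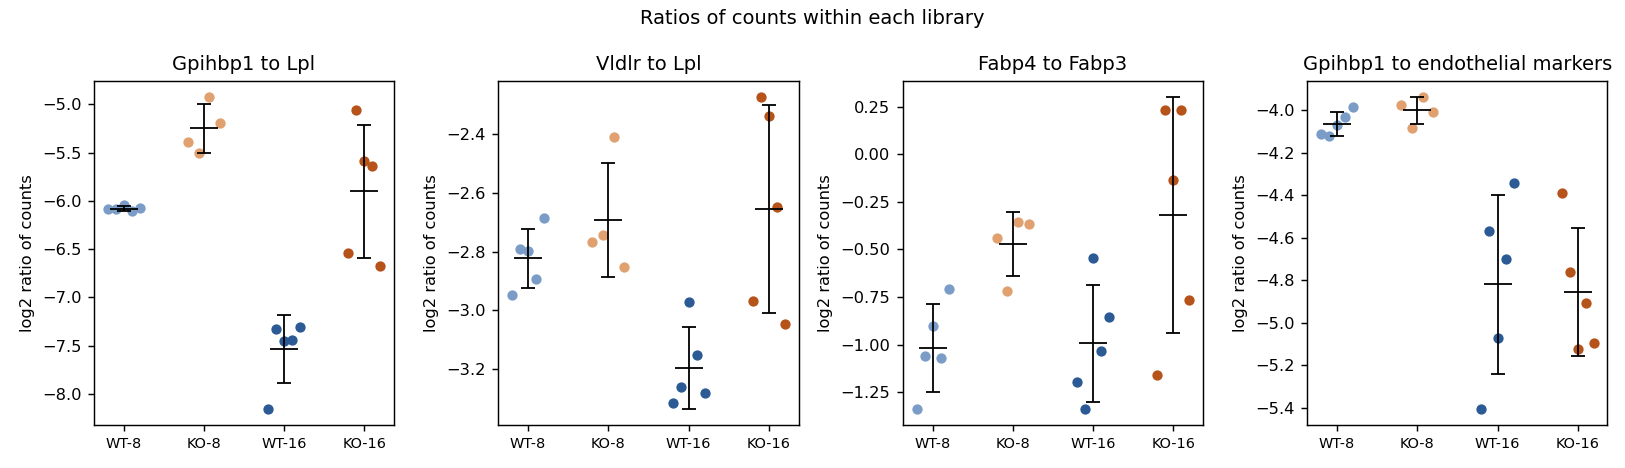
Log2 ratio of raw counts of a pair of genes in the same library (vertical axis) for the 4 groups (horizontal axis), with a point for each library and black bars for mean ± SD. Gpihbp1 to Lpl is higher in every knockout library than in the wild-type libraries of the same time, and the level of Lpl alone also separates them.

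KO-16 libraries differed from each other in an order that several members shared. Replicates 1 and 5 were the 2 highest for 4 members, Lpl, Cd36, Fabp3 and Vldlr, and for Mpc1, which was 26.2, 9.04, 9.26, 15.2 and 15.9 CPM in replicates 1 to 5. Lpl and Mpc1 had the same order in these 5 libraries. How many of all genes share either order was not counted, so neither is a trait shown for the members. KO-16 replicates 2 and 3, the lowest for both genes, also had the least 18S, at 1.711 and 5.657%. In replicates 1, 4 and 5 it was 12.66, 29.96 and 26.08%. A relation of Lpl to the Mpc1 left was not tested. Each 16-week sample has 2 count files, and the labels do not say how they differ. Between the files of a sample the largest log2 difference was 0.05 for Lpl, 0.06 for Cd36, 0.13 for Fabp4, 0.14 for Vldlr and 0.15 for Fabp3. It was 0.44 for Slc27a1, 0.49 for Gpihbp1 and 0.85 for Angptl4, the 3 members with the lowest CPM.

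Of 56 other genes of lipid delivery and uptake, 37 were tested at 16 weeks and 40 at 8 weeks. At 16 weeks 4 were higher and 2 lower, with a median log2 fold change of 0.20. Leaving out single libraries gave 0 to 9 higher and 0 to 3 lower. Acsl1, the main acyl-CoA synthetase of heart, fell by 0.64 (adjusted p = 0.0429), from 691.5 ± 45.7 to 441.8 ± 107.5 CPM. Those higher were Pcsk5, a proprotein convertase (1.14, adjusted p = 0.0358), the sorting receptor Sorl1 (0.89, adjusted p = 0.0497), the synthetase Acsl6 (0.84, adjusted p = 0.0370) and Apoe, the apolipoprotein that binds Vldlr (0.64, adjusted p = 0.0423).

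At 8 weeks 5 of the 40 were higher and 4 lower, with a median of 0.07, and 3 to 6 and 1 to 4 on leaving out single libraries. Higher were Aplnr, the apelin receptor (0.61), Acsl6 (0.54), Fabp5 (0.36), Sorl1 (0.33) and the caveolin Cav1 (0.30). Among those lower were Acsl3 (-0.47), the syndecan Sdc4 (-0.41) and Meox2, an endothelial transcription factor (-0.35). Acsl6 and Sorl1 passed in the same direction at both times. Among 10 nuclear receptors and coactivators of lipid genes, 0 passed at 16 weeks in edgeR, DESeq2 and limma-voom and 2 with quality weights, with 2 at an unadjusted p under 0.05 in edgeR. At 8 weeks 1 passed: Ppargc1a, the coactivator PGC-1α, fell by 0.38 (adjusted p = 0.0411), from 159.5 ± 21.9 to 121.7 ± 18.9 CPM.

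Markers of other cell types were looked at beside the members. Fibroblast markers were higher for 5 of 10 genes at 8 weeks and 4 of 9 at 16 weeks, and the WT-16 libraries summed to between 679.1 and 943.4 CPM against 895.9 to 1731 CPM for KO-16. Macrophage markers summed to between 126.3 and 167.9 CPM in WT-16 libraries and between 141.2 and 208.2 CPM in KO-16 libraries, which overlap. In edgeR 0 passed at either time, with 3 at an unadjusted p under 0.05 at each. DESeq2 called 2 at 16 weeks and 1 at 8 weeks, limma-voom 0 and 1, and quality weights 3 and 0. Of 9 smooth muscle and pericyte markers, 4 were higher and 1 lower at 8 weeks, and 1 was higher at 16 weeks. Erythroid markers had a median log2 fold change of -0.74 at 8 weeks, where 1 of 7 passed, lower. At 16 weeks it was 1.78, and 0 of 5 tested passed. Their sum ran from 48.03 to 1138 CPM in KO-16 and from 53.37 to 133.1 CPM in WT-16, which overlap. Atrial markers summed to at most 6.418 CPM at 8 weeks, but up to 220.4 CPM in WT-16 libraries and 167.7 CPM in KO-16 libraries. WT-16 replicate 3, with the most adipocyte marker RNA, had 87.8 CPM of the atrial gene Myl7. The part of these cell types in the levels of Fabp4, Cd36 and Lpl was not tested.

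The genes most like each member were found by the root mean square difference of centred log2 CPM over the 19 libraries. This description includes the differences between genotypes and between times. Fabp3 had the closest partner, Acadm, the medium-chain acyl-CoA dehydrogenase, at 0.075 against a spread of 0.40 for Fabp3 itself, followed by N4bp2 and Aldh6a1. Nearest to Lpl were Ccdc141 (0.14 against a spread of 0.57), Mapk1ip1 and Tcaim, and to Vldlr Klhl24 (0.12 against 0.34), Inpp4b and Asb11. For Slc27a1 they were Cpt2, Hadh and Slc25a34, of which Cpt2 (0.19 against 0.68) and Hadh are enzymes of fatty acid oxidation. For Gpihbp1 they were another fatty acid transporter, Slc27a4 (0.17 against 0.54), Car14 and the endothelial gene Esam. Cd36 was nearest to Fry (0.14 against 0.32), Dram2 and Mlip. Matches were looser for Fabp4, nearest to Zfp706 (0.19 against 0.27), Golga3 and Chmp5, and for Angptl4, nearest to Slc25a22 (0.70 against 1.25), Lipe and Smim5. Cd36, Fabp4, Slc27a1 and Gpihbp1 had other genes nearly as close as the nearest.

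**Figure D4:**
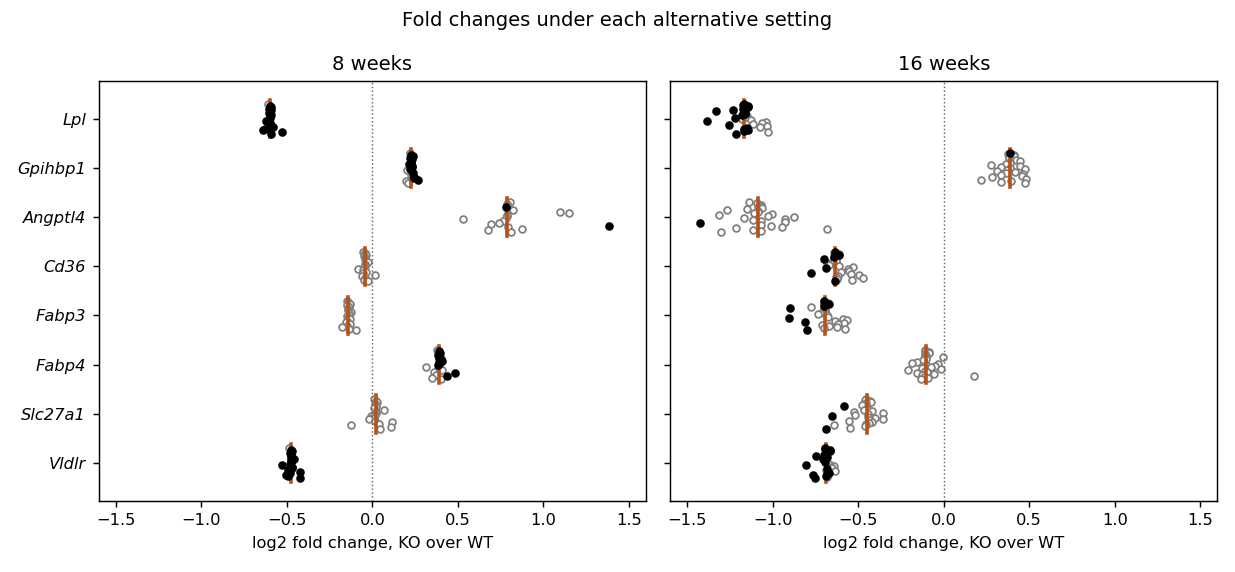
Log2 fold change of each gene under each processing setting (horizontal axis) at 8 and 16 weeks, filled black where it passed the threshold and open where it did not, with a brown bar at the reported value. Lpl and Vldlr stay below 0 under every setting drawn, from -1.38 to -1.03 for Lpl and -0.81 to -0.63 for Vldlr at 16 weeks.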

How the data were processed

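Ventricular RNA of mouse heart was depleted of rRNA and sequenced as stranded paired-end libraries, per the labels' protocols. The values are the counts of read pairs per gene deposited by the authors, which per the file headers come from featureCounts 1.6.3, run for read pairs on the reverse strand, each pair going to the gene of largest overlap, with Ensembl 96 on GRCm38. STAR, RSEM, SAMtools, FastQC and cutadapt 1.16 stand in the submitters' processing notes with no role given. By position and strand, all 55536 genes matched GENCODE M21.

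The 2 files of each 16-week sample were summed: chi-square per gene was 1.34 to 3.15 between such files and 6.305 or more between samples of a group. Totals were 8632127 to 27516660 read pairs, and fewer counts limit Angptl4 and Gpihbp1 most. Counts were tested with edgeR 4.0.16 in R 4.3.3 (quasi-likelihood, TMM factors, filterByExpr, Benjamini-Hochberg over all genes tested, threshold 0.05), within each time, and for the difference between times over all 19 libraries. SE was obtained by dividing the size of the log2 fold change by the root of its F statistic. CPM are counts over the library total times its TMM factor (0.455 to 1.476), and log2 CPM used a prior count of 2. The code was tested on simulated data. Tables and plots used Python 3.11.15, numpy 2.4.6, pandas 2.3.3 and matplotlib 3.10.9.

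The rule for the members uses no measured value, but members and lists were chosen with earlier results of these data known. All 8 members are named, of the 2 pathway lists every gene past the threshold, and the 3 genes nearest to each member. A gene of a pathway list is counted but not reported here by name. Ratios to cardiomyocyte markers were added after seeing the data, and Mpc1 and single markers stand outside the naming rule. Alternatives were upper-quartile or RLE factors, a minimum of 1 CPM in 4 libraries or no minimum, limma 3.58.1 voom with and without quality weights, DESeq2 1.42.0, all 19 libraries, only protein-coding genes, rRNA or mitochondrial genes omitted, each library or 16-week file left out, the 18S share or sex as a covariate, male libraries left out, and libraries over 20% 18S. After seeing the data, the 18S covariate was combined with rRNA genes left out and with quality weights.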

Additional observations from a re-analysis of the deposited data

Results flagged for a closer look

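Vldlr in KO-16 replicate 1 was 327.3 CPM, while the other 4 KO-16 libraries were 215.1 to 245.3 CPM. That gap is large for a group of 5. It was the only such value among 32 combinations of gene and group looked at, and chance alone gives such a gap in about 1 of 20. The library also had the highest Mpc1 and the highest Lpl, Fabp3 and Slc27a1 of its group.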

How the results depend on the processing

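At 16 weeks, 2 members and 356 of all genes passed. These counts became 5 and 3181 in the fit to all 19 libraries, 4 and 1034 without a filter, 4 and 1166 in DESeq2, and 5 and 2514 with quality weights. They became 0 and 28 with the 18S covariate, 0 and 10 without male libraries, 0 and 29 with the covariate and rRNA genes left out, and 5 and 1457 with quality weights and the covariate. Leaving out each library gave 0 to 5 members and 29 to 1856 genes. KO-16 replicate 5 left out gave the 1856, and KO-16 replicate 1 left out gave 1702. At 8 weeks, 4 members and 1245 genes became 0 and 31 in the fit to all 19 libraries, and leaving out each library gave 2 to 5 members and 872 to 1163 genes. For the difference between times, 0 members and 0 genes became 3 and 527 with quality weights, while genes became 43 without a filter and 30 in DESeq2. Leaving out each library gave 0 to 2 members and 0 to 613 genes, the 613 without KO-16 replicate 1 and 114 without KO-16 replicate 5.

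Reversed values were all of genes that did not pass. Fabp4 at 16 weeks was 0.17 in libraries over 20% 18S. At 8 weeks, leaving out each library gave -0.087 to 0.013 for Cd36 (0.013 without WT-8 replicate 5) and -0.12 to 0.12 for Slc27a1: it was -0.0052, -0.0006 and -0.0217 without WT-8 replicates 1, 2 and 3 and -0.12 without KO-8 replicate 2. The causes were not tested. No paired analysis was possible because the labels give the groups no shared replicate numbers.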
